A study of Rattus norvegicus with 12 samples.

Results

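Livers of rats on a high-fat diet were compared with livers of normal rats by RNA sequencing, gene by gene. The comparison takes 6 of the 12 libraries of a study of Sprague Dawley rats, an outbred laboratory stock: 3 of the model group, called M.5, M.6 and M2.1 by the columns of the deposited table, and 3 of the normal group, N.1, N.2 and N.3. The sample titles call the normal group "rat wt" and the model group "rat model", and the letters N and M were read as these groups. Model rats were fed the high-fat diet for 8 weeks, which the study used to bring about non-alcoholic fatty liver disease, and normal rats were given saline. The other 6 libraries, from fatty-liver rats treated with the citrus flavonoid didymin, were not compared here. The labels give no age or sex, do not say what the normal rats ate, and no label links a library to a given animal; p-values therefore measure only the spread between these libraries. All 6 libraries were made in the same way from liver RNA extracted with Trizol.

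The liver makes cholesterol from acetyl-CoA through the mevalonate pathway, squalene and a series of sterols. When cholesterol in the membrane of the endoplasmic reticulum is low, the transcription factor SREBP2 is released, enters the nucleus and raises the genes of this pathway and of cholesterol uptake; when it is plentiful, INSIG proteins hold SREBP2 back. Fatty acid synthesis answers to the related SREBP1c and to ChREBP, which follow insulin and glucose, and bile acids are the main route by which the liver disposes of cholesterol.

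Values are read counts scaled to counts per 1000000 of the library (CPM), given for the normal libraries in the order N.1, N.2, N.3 and for the model libraries in the order M.5, M.6, M2.1. Fold changes are on the log2 scale, model over normal, so that a negative value is a lower level in the model. The value after ± is an approximate standard error, the size of the fold change over the square root of the edgeR F statistic. The table holds 15929 genes, of which 11779 passed a filter on low counts and were tested. Total counts per library ran from 12842031 to 15521648. Genes of the mitochondrial genome took 4.63%, 3.85% and 11.2% of the counts in the normal libraries and 18.8%, 44.1% and 4.90% in the model libraries, which left 7173229 nuclear counts in M.6. On the first principal component M2.1 lay at −53.6, next to N.1 at −52.9 and N.2 at −40.4, while M.5 and M.6 lay at 55.5 and 72.4, so the 2 groups did not separate on it. Alb, the albumin gene and the defining hepatocyte transcript, was between 47709 and 130593 CPM in all 6 libraries, and the Y-linked Eif2s3y was between 27.3 and 52.8 CPM in all 6.

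Over all tested genes the spread between libraries was wide (biological coefficient of variation 0.406), and 0 genes passed an adjusted p of 0.05 in the quasi-likelihood test of edgeR (0% of 11779). At an unadjusted p under 0.05 in edgeR there were 636 genes (5.4%), 398 of them higher in the model. That count was 276 without N.1, 231 without N.2, 403 without M.6 and 3220 without M2.1, the model library that lay beside the normal ones. The median log2 fold change of all tested genes was 0.02. As a description with no test, genes were also counted whose 3 model libraries all lay on the same side of all 3 normal ones: 600 genes were higher by this measure (5.09%) and 636 lower (5.4%). DESeq2 called 58 genes at an adjusted p of 0.05, 31 higher and 27 lower, of which 56 had groups that did not overlap. The authors' deposited table lists 53 genes at that threshold, 30 higher and 23 lower, and 50 of them are among the 58. Limma-voom called 0 genes, with 532 at an unadjusted p under 0.05. Genes below are described by their values and by edgeR, and the DESeq2 adjusted p is added where it is under 0.05; none of them passed in edgeR.

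Of the 58 genes that DESeq2 called, 11 belong to sterol synthesis and its regulation and 47 lie outside, 31 higher and 16 lower. The share of members whose groups did not overlap differed widely between gene lists. It was 71.4% (lower) for cholesterol synthesis, with 21 tested members, and 41.4% (lower) for acute phase proteins, with 29. For genes that are higher in female than in male rat liver it was 66.7% (lower), with only 6 tested members. For conjugation enzymes it was 15.4% (higher), with 26. Over all tested genes it was 5.4% (lower) and 5.09% (higher). For nuclear genes of oxidative phosphorylation, with 51 tested members, and ribosomal proteins, with 67, it was 0% in both directions. Of these members 37 and 56 had positive log2 fold changes, with medians of 0.26 and 0.28. The ribosomal mean was 5.44, 5.74 and 6.37 log2 CPM in the normal libraries. In M.5, M.6 and M2.1 it was 6.67, 6.42 and 5.16 log2 CPM, so the model libraries lay on both sides of the normal ones.

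**Figure D1:**
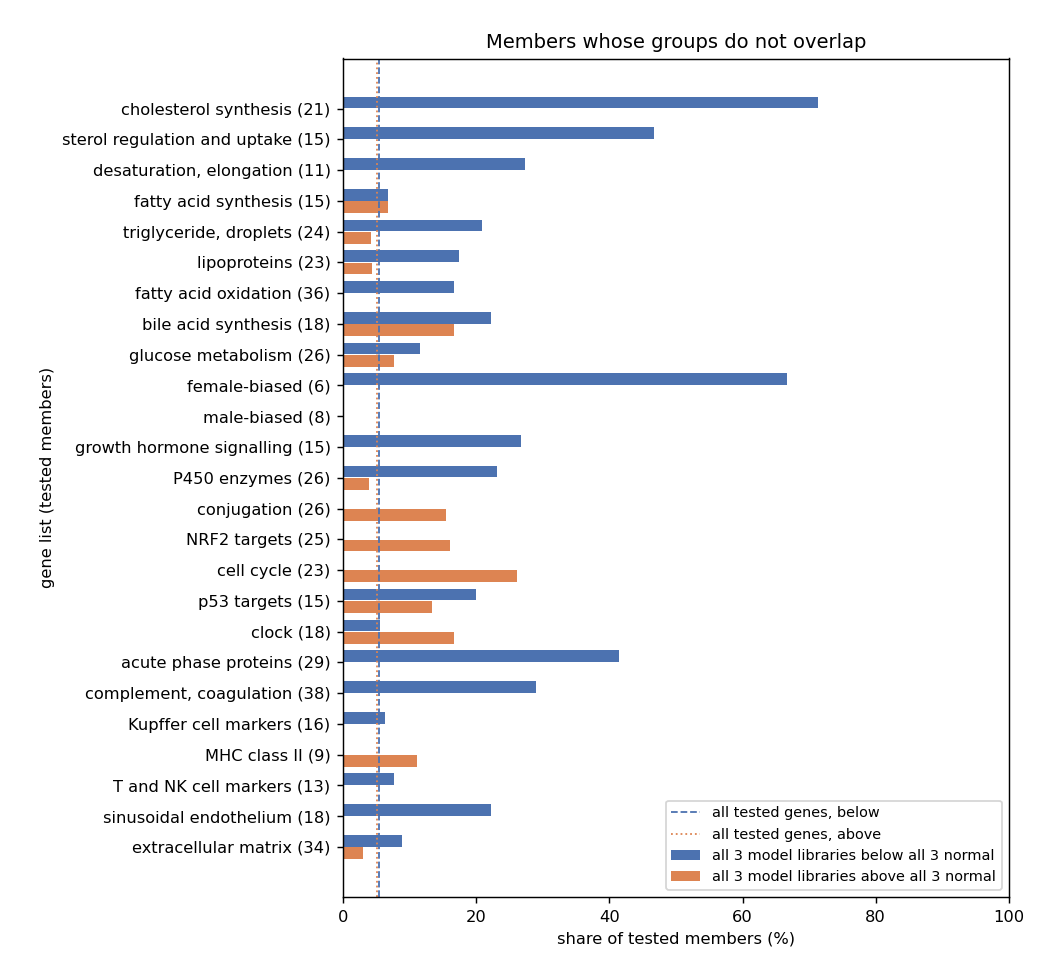
Share of the tested members of 25 gene lists (percent, x axis) whose 3 model libraries all lay below (blue bars) or all above (orange bars) the 3 normal libraries. The vertical lines mark the same shares over all 11779 tested genes, 5.4% below and 5.09% above; cholesterol synthesis reached 71.4% below and male-biased genes 0% on both sides.

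Enzymes of cholesterol synthesis were at lower levels in the model along most of the pathway. Of 21 listed enzymes all 21 were tested, 20 had a negative log2 fold change, and 15 were lower in every model library than in every normal library, against 5.4% of all tested genes in that direction. The median log2 fold change was −1.71, beside 0.02 for all tested genes, and it was −1.57 without M.6 and −1.82 without M2.1. With the mitochondrial share as a covariate it was −1.29. In edgeR 17 of the 21 had an unadjusted p under 0.05, and 13 with that covariate. The mean level of the list was 6.23, 5.88 and 5.36 log2 CPM in the normal libraries and 4.13, 3.90 and 4.28 log2 CPM in the model libraries, so the 3 model libraries lay close together and M2.1 too lay below every normal library. The count of 15 was the same without M.6 and 18 without M2.1, where 8.05% and 22.2% of all tested genes were lower in every remaining model library.

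The first steps lead from acetyl-CoA to mevalonate and its phosphates. Acat2, which joins 2 acetyl-CoA units, was at 7.56, 4.06 and 2.33 CPM in the normal libraries and 1.07, 1.46 and 0.599 CPM in the model libraries. Hmgcs1, the HMG-CoA synthase, was at 787, 554 and 499 CPM in the normal libraries and 415, 296 and 306 CPM in the model libraries, a log2 fold change of −0.86 ± 0.30. Both were lower in all 3 model libraries, and so were the kinases Mvk and Pmvk, at −0.87 ± 0.34 and −0.54 ± 0.23. Mvd, the decarboxylase that closes the mevalonate steps, was at 7.31, 7.58 and 5.11 CPM in the normal libraries and 2.39, 1.91 and 2.12 CPM in the model libraries, a log2 fold change of −1.64 ± 0.33 (DESeq2, adjusted p = 0.011).

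The isoprenoid and squalene steps were lower too. Idi1, the isomerase of isopentenyl diphosphate, was at 68.3, 47.9 and 19.4 CPM in the normal libraries and 9.71, 8.19 and 5.82 CPM in the model libraries, a log2 fold change of −2.52 ± 0.47 (DESeq2, adjusted p = 0.000458). Fdps, the farnesyl diphosphate synthase, was at 237, 146 and 119 CPM in the normal libraries and 43.3, 43 and 37.3 CPM in the model libraries, a log2 fold change of −2.02 ± 0.32 (DESeq2, adjusted p = 1.2e-05). Fdft1, the squalene synthase, was at 148, 107 and 131 CPM in the normal libraries and 43.3, 31.4 and 43.1 CPM in the model libraries, a log2 fold change of −1.71 ± 0.26 (DESeq2, adjusted p = 8.27e-06). In all of these the highest model library lay below the lowest normal one, and in Fdps and Fdft1 the model libraries were near each other. Sqle, the squalene epoxidase and a second control point of the pathway, was at 61, 31.9 and 19.1 CPM in the normal libraries and 2.14, 4.1 and 2.67 CPM in the model libraries, a log2 fold change of −3.66 ± 0.51 (DESeq2, adjusted p = 6.16e-09). Lss, which closes the ring to lanosterol, overlapped between groups through N.3 at 5.63 and M2.1 at 6.42 CPM, with a log2 fold change of −2.09 ± 0.61. Ggps1, which leads away from sterols to geranylgeranyl diphosphate, was the 1 listed member with a positive value, 0.09 ± 0.31, and its sign turned without M.6.

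The steps from lanosterol to cholesterol held the gene with the smallest p. Tm7sf2, a sterol reductase, was at 106, 155 and 87.6 CPM in the normal libraries and 7.49, 5.55 and 11.5 CPM in the model libraries. Its log2 fold change was −3.82 ± 0.39, with an adjusted p of 0.134 in edgeR and 2.34e-17 in DESeq2. In edgeR it passed the threshold without M2.1 (adjusted p = 0.0182), with the mitochondrial share as a covariate (adjusted p = 0.0164) and with no filter on low counts (adjusted p = 0.0392). Cyp51, the lanosterol demethylase, was at 358, 220.2 and 131 CPM in the normal libraries and 27.1, 15.8 and 29.4 CPM in the model libraries, a log2 fold change of −3.29 ± 0.45 (DESeq2, adjusted p = 4.17e-09). Msmo1, the methylsterol monooxygenase, was at 108, 71.8 and 37.4 CPM in the normal libraries and 10.1, 6.46 and 10.6 CPM in the model libraries, a log2 fold change of −2.99 ± 0.43 (DESeq2, adjusted p = 1.89e-07). No model library reached the lowest normal library in these 3 genes. Hsd17b7, a sterol ketoreductase, was at 14.9, 12.9 and 8.78 CPM in the normal libraries and 2.55, 2.0 and 4.41 CPM in the model libraries, a log2 fold change of −2.01 ± 0.40 (DESeq2, adjusted p = 0.00365). Dhcr7, a reductase at the end of the route, had −1.48 ± 0.36.

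**Figure D2:**
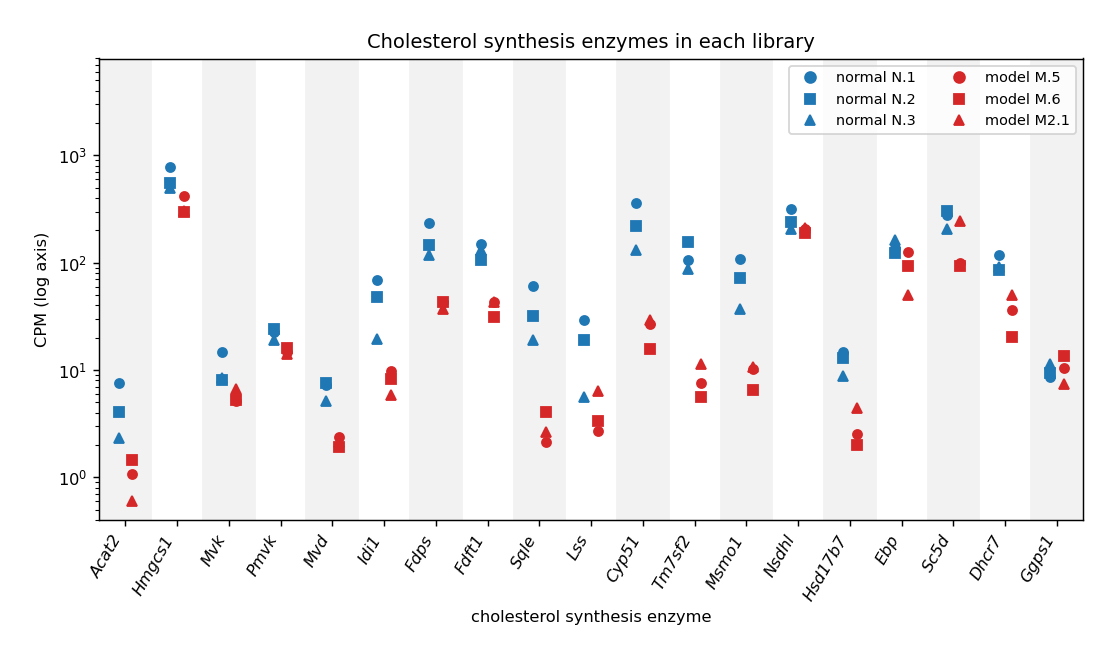
Level of each of 19 cholesterol synthesis enzymes in CPM (log axis) in the 3 normal (blue) and 3 model (red) libraries, in the order of the pathway from left to right. In 14 of the 19 enzymes all red points lie below all blue points, with the widest gap in Tm7sf2 (87.6 CPM or more in normal, 11.5 CPM or less in the model).

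Regulators of sterol supply were lower too. Of 15 tested members of the list of sterol regulation and uptake, 13 had a negative log2 fold change. In every model library 7 were lower (46.7%, beside 5.4% of all tested genes). The median was −0.73, and −0.50 without M.6 and −1.36 without M2.1. Insig1, which holds the SREBP complex in the endoplasmic reticulum and is itself an SREBP target, was at 344, 414 and 194 CPM in the normal libraries and 102, 34.6 and 60.2 CPM in the model libraries, a log2 fold change of −2.27 ± 0.47 (DESeq2, adjusted p = 0.00182). It was lower in all 3 model libraries. Srebf2, which encodes SREBP2, was at 77.6, 59.3 and 43.9 CPM in the normal libraries and 21.4, 23 and 37.5 CPM in the model libraries, a log2 fold change of −1.14 ± 0.33. Stard4, a carrier of cholesterol between membranes, had −1.53 ± 0.37, Tmem97, a regulator of cholesterol trafficking, −1.10 ± 0.35, Insig2 −0.93 ± 0.38, and the lysosomal lipase Lipa −0.49 ± 0.24, each lower in all 3 model libraries.

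The upstream sequences of many of these genes hold a short motif, CCAAT, and are shown for the 6 sterol enzymes with the smallest p among those that matched RefSeq by symbol and hold it. In RefSeq (GRCr8), 16 of the 21 enzymes had a single promoter entry under their symbol. Only such genes were counted as matched, and genes with several entries or none were left out. The CCAAT box, to which the factor NF-Y binds and which often accompanies SREBP sites, was searched as CCAAT on both strands in the 250 bases before the annotated start. It was present in 13 of the 16 (81.2%), in 8 of 10 matched genes of sterol regulation and uptake (80%), and in 3013 of 8396 matched tested genes (35.9%). The sterol element TCACNCCAC, searched the same way, was present in 0 of the 16 enzymes and in 83 of the 8396 genes (0.989%), and CACGTG was present in 1 of the 16 and in 704 of the 8396 (8.38%). Each sequence below is 90 bases, 5′ to 3′ on the strand of the gene, and capitals mark CCAAT or its reverse complement ATTGG.
Tm7sf2 (chr1:212789584-212789673, minus strand): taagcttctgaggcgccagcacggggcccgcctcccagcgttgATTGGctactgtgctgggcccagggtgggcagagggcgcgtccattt
Msmo1 (chr16:29747002-29747091, plus strand): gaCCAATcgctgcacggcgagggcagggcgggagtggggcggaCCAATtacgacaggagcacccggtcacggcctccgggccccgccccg
Fdps (chr2:176804855-176804944, minus strand): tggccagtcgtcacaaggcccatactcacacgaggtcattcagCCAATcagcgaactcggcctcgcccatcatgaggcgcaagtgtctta
Idi1 (chr17:66547525-66547614, minus strand): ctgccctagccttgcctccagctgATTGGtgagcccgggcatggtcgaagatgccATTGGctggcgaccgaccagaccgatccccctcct
Hsd17b7 (chr13:84722755-84722844, minus strand): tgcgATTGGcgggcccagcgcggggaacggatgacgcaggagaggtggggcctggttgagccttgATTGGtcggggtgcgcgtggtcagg
Mvd (chr19:67414975-67415064, minus strand): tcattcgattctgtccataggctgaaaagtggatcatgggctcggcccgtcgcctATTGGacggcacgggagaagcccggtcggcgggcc

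The windows of Idi1, Hsd17b7 and Mvd end at the base before the annotated start, and those of Msmo1, Fdps and Tm7sf2 end 22, 39 and 43 bases before it. A match of these letters is a description of the sequence and not a measured binding site.

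Outside sterol synthesis, the genes of fatty acid metabolism went in different directions. Those that build polyunsaturated chains were lower: Fads1, a desaturase of polyunsaturated fatty acids, was at 321, 271 and 120.0 CPM in the normal libraries and 43.8, 26.7 and 60.2 CPM in the model libraries, a log2 fold change of −2.44 ± 0.46 (DESeq2, adjusted p = 0.000312). Elovl2, an elongase of the same route, was at 48.8, 78.7 and 83 CPM in the normal libraries and 21.2, 21.6 and 40.6 CPM in the model libraries, a log2 fold change of −1.33 ± 0.35. Both were lower in all 3 model libraries, as was Tecr, the last reductase of chain elongation, at −0.72 ± 0.33. Of the 11 tested genes of desaturation and elongation 8 were negative, with a median log2 fold change of −0.61 (−0.38 without M.6). In every model library 3 were lower (27.3%, beside 5.4% of all tested genes) and 0 higher.

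Fatty acid synthesis as a list was balanced, with 7 of 15 tested members negative and a median of 0.19 (−0.16 without M2.1). In every model library 1 member was higher and 1 lower (6.67% each, near the 5.09% and 5.4% of all tested genes). Mlxipl, which encodes ChREBP, was the higher one, at 44.1, 35.2 and 32.4 CPM in the normal libraries and 68.9, 111 and 53 CPM in the model libraries, a log2 fold change of 1.06 ± 0.32. Acss2, which makes acetyl-CoA from acetate, was the lower one, at 42.5, 43.9 and 18.6 CPM in the normal libraries and 14.7, 11.4 and 17.7 CPM in the model libraries, a log2 fold change of −1.26 ± 0.37. Acacb, the acetyl-CoA carboxylase at the mitochondrial membrane, had −1.26 ± 0.43 with overlapping groups. Srebf1, which encodes SREBP1c, was at 102, 34.5 and 35.7 CPM in the normal libraries and 177, 40.4 and 574 CPM in the model libraries, and Scd, the stearoyl-CoA desaturase, was at 77.1, 126 and 89.2 CPM in the normal libraries and 1029.8, 54.6 and 1651 CPM in the model libraries. In both genes M.5 and M2.1 lay above all normal libraries and M.6 did not, so the groups overlapped. Scd had a log2 fold change of 3.23 ± 0.99 (DESeq2, adjusted p = 0.0319; 3.78 without M.6), and Srebf1 2.20 ± 0.89, which was 2.71 without M.6 and 0.90 without M2.1.

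Angptl8, a secreted inhibitor of lipoprotein lipase that is known to rise with feeding, was at 32.1, 11.6 and 28.5 CPM in the normal libraries and 102, 94.5 and 73.7 CPM in the model libraries, a log2 fold change of 1.91 ± 0.40 (DESeq2, adjusted p = 0.00515). All 3 model libraries exceeded all normal libraries. On the side of glucose production, Pck1, the phosphoenolpyruvate carboxykinase, was at 4659, 5149 and 2720.0 CPM in the normal libraries and 1755, 1194 and 2709.9 CPM in the model libraries, a log2 fold change of −1.15 ± 0.44. Ppargc1a, a coactivator of gluconeogenesis and fatty acid oxidation, was at 4.62, 3.64 and 0.826 CPM in the normal libraries and 0.658, 0.182 and 0.653 CPM in the model libraries, a log2 fold change of −2.56 ± 0.76. In these also the groups did not overlap, but N.3 lay next to the model libraries in both. The whole list of glucose metabolism, with 26 tested members, had 2 higher (7.69%) and 3 lower (11.5%) in every model library. Over all tested genes these shares were 5.09% and 5.4%, and the median of the list was 0.09. Ppp1r3c, a glycogen-targeting subunit, had 1.27 ± 0.46 and Pfkfb1, which makes the activator of glycolysis, had 1.02 ± 0.39, both with overlapping groups.

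Among genes of triglyceride synthesis and lipid droplets, 5 of 24 tested members were lower (20.8%) and 1 higher (4.17%) in every model library. Over all tested genes these shares were 5.4% and 5.09%, and the median of the list was −0.31 (−0.15 without M.6). With the mitochondrial share as a covariate the median was −0.08 and 13 of the 24 were negative, beside 16 in the main fit. The higher one was G0s2, the inhibitor of adipose triglyceride lipase, at 117, 98.2 and 103 CPM in the normal libraries and 387, 137 and 289.8 CPM in the model libraries, a log2 fold change of 1.35 ± 0.39. Abhd5, the activator of the same lipase, was at 57.6, 67.1 and 60.1 CPM in the normal libraries and 44.4, 40.5 and 42.9 CPM in the model libraries, a log2 fold change of −0.53 ± 0.21, and thus lay on the opposite side. The acyltransferases that make phosphatidic acid were lower, with −1.0 ± 0.36 for Agpat2 and −0.85 ± 0.27 for Agpat3. Gpat3, an enzyme of the first acylation, was at 7.44, 9.1 and 4.65 CPM in the normal libraries and 0.494, 3.73 and 0.163 CPM in the model libraries, so that M.5 and M2.1 were close to 0 and M.6 was near N.3. The log2 fold change of Gpat3 was −2.32 ± 0.95, and −4.48 without M.6. Fitm2, which helps droplets form, had −0.39 ± 0.23.

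In lipoprotein assembly and export, 23 members were tested, 4 were lower in every model library (17.4%, beside 5.4% of all tested genes) and 1, Angptl8, was higher. The count of 4 was 2 with RLE scaling or with all 12 libraries in 1 fit (8.7%, beside 5.03% and 5.29%) and 1 with a mean CPM of at least 5. Mttp, which loads triglyceride onto nascent particles, was at 226, 239 and 211 CPM in the normal libraries and 158, 135 and 211 CPM in the model libraries, a log2 fold change of −0.42 ± 0.26. The other lower ones were Tm6sf2, which acts in the export of triglyceride, at −0.58 ± 0.31, and the apolipoprotein genes Saa4 at −0.61 ± 0.30 and Apoa5 at −0.37 ± 0.29. In Mttp M2.1 and N.3 were equal to the digits given, and in Tm6sf2 too M2.1 lay close to the lowest normal library. Among 36 tested genes of fatty acid oxidation and PPAR-alpha, the receptor for fatty acids, 26 were negative, with a median of −0.29. In every model library 6 were lower (16.7%, beside 5.4% of all tested genes) and 0 higher. Creb3l3, a membrane-bound transcription factor of fasting metabolism, was at 539.8, 722 and 570.0 CPM in the normal libraries and 336, 344 and 357 CPM in the model libraries, a log2 fold change of −0.82 ± 0.26. Cyp4a8, an omega-hydroxylase of fatty acids, had −1.43 ± 0.38 with no overlap, and Pdk4, which shuts off glucose oxidation in fasting, had −1.23 ± 0.49 with overlap.

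Bile acid synthesis showed higher and lower members side by side. Of 18 tested genes 3 were higher (16.7%) and 4 lower (22.2%) in every model library, beside 5.09% and 5.4% of all tested genes. The median was 0.03. Cyp7a1, the rate-limiting hydroxylase of the classical route, was at 42.9, 25.7 and 25.4 CPM in the normal libraries and 82.7, 72.3 and 205 CPM in the model libraries, a log2 fold change of 1.94 ± 0.46 (DESeq2, adjusted p = 0.0254; 1.29 without M2.1). Cyp7b1, the hydroxylase of the alternative route, was at 2.12, 4.25 and 4.5 CPM in the normal libraries and 10.7, 6.37 and 7.68 CPM in the model libraries, a log2 fold change of 1.19 ± 0.40. Nr1h4, which encodes the bile acid receptor FXR, was at 72.7, 65.4 and 62.6 CPM in the normal libraries and 91.5, 117 and 88.1 CPM in the model libraries, a log2 fold change of 0.56 ± 0.23. These 3 were the higher members, and M2.1 set the highest level of Cyp7a1.

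The lower members acted later in the route. Cyp8b1, the hydroxylase that directs synthesis to cholic acid, was at 1213, 1258 and 712 CPM in the normal libraries and 349, 413 and 631 CPM in the model libraries, a log2 fold change of −1.19 ± 0.37. Slc27a5, the ligase that activates bile acids for conjugation, was at 1075, 948 and 444 CPM in the normal libraries and 264, 311 and 313 CPM in the model libraries, a log2 fold change of −1.48 ± 0.38 (DESeq2, adjusted p = 0.0404). Amacr, a racemase of side-chain shortening, had −0.80 ± 0.28, and Akr1c14, a hydroxysteroid dehydrogenase, −0.46 ± 0.28. In all 3 model libraries Cyp7a1 thus lay above and Cyp8b1 and Slc27a5 below the normal range. Of 16 tested transporters of bile acids and sterols 1 was lower in every model library (6.25%), near the 5.4% of all tested genes. It was Abcg8, a member of the pair that exports sterol into bile. Abcg8 was at 5.19, 7.22 and 7.13 CPM in the normal libraries and 2.8, 3.73 and 1.25 CPM in the model libraries. Its log2 fold change was −1.34 ± 0.45.

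Growth hormone, whose pattern of release sets the sex-specific genes of rat liver, acts through JAK2 and STAT5. Prlr, the prolactin receptor, which is higher in female liver, had the lowest log2 fold change of the genes with the 10 smallest p in that direction: it was at 11.5, 47.6 and 15.4 CPM in the normal libraries and 1.65, 0.728 and 1.14 CPM in the model libraries, a log2 fold change of −4.39 ± 0.66 (DESeq2, adjusted p = 9.65e-09). Cyp2c12, a steroid hydroxylase of female rats, was at 76.8, 27.7 and 34.8 CPM in the normal libraries and 6.25, 9.74 and 5.44 CPM in the model libraries, a log2 fold change of −2.70 ± 0.46 (DESeq2, adjusted p = 3.54e-05). Its family holds near-identical genes that can share reads, which makes this value uncertain. The steroid reductase Srd5a1 was at 148, 173 and 123 CPM in the normal libraries and 81.3, 24.2 and 64.2 CPM in the model libraries, a log2 fold change of −1.38 ± 0.43. These 3 genes and Cyp2a1, at −0.38 ± 0.28, were lower in every model library. They are 4 of the 6 tested female-biased genes (66.7%, beside 5.4% of all tested genes). All 6 were negative, with a median of −1.58. Of 8 tested male-biased genes 0 lay outside the normal range in all model libraries, and their median was −0.33, and 0.07 without M.6. The 2 lists were not tested against each other.

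Cish and Socs3, which growth hormone raises in a feedback loop, were lower in the model. Cish, a feedback inhibitor of cytokine receptors, was at 57.1, 74.2 and 40.2 CPM in the normal libraries and 22.9, 6.65 and 1.42 CPM in the model libraries, a log2 fold change of −2.47 ± 0.84. Socs3, another such inhibitor, was at 4.81, 8.68 and 3.9 CPM in the normal libraries and 1.32, 2.09 and 1.31 CPM in the model libraries, a log2 fold change of −1.89 ± 0.45 (DESeq2, adjusted p = 0.0404). Both were lower in every model library, and Cish was lowest in M2.1. Cux2, a transcription factor of female liver, was at −1.78 ± 0.76 with overlapping groups, and Jak2 at −0.21 ± 0.23. In the list of growth hormone signalling 4 of 15 tested members were lower in every model library, Prlr among them, and 0 higher. Prlr and Cux2 are members of the female-biased list too, so the lists are not separate. The lower share was 26.7%, beside 5.4% of all tested genes, and the median was −0.21.

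Enzymes of drug metabolism lay on both sides. Of 26 tested P450 enzymes and their regulators 6 were lower (23.1%) and 1 higher (3.85%) in every model library, with a median of −0.19. Over all tested genes these shares were 5.4% and 5.09%. Cyp1a2, an enzyme of pericentral hepatocytes that handles caffeine and aromatic amines, was at 725, 695 and 405 CPM in the normal libraries and 378, 180.3 and 255 CPM in the model libraries, a log2 fold change of −1.17 ± 0.38. Cyp3a23/3a1, a PXR-inducible enzyme, was the higher one, at 946, 1043 and 1348 CPM in the normal libraries and 2018, 2143 and 1434 CPM in the model libraries, a log2 fold change of 0.75 ± 0.32. Cyp2d4 had −0.94 ± 0.43. Of 26 conjugation genes 4 were higher (15.4%) and 0 lower in every model library, with a median of 0.23. Gsta3, a glutathione transferase, was at 5.13, 6.73 and 4.8 CPM in the normal libraries and 12.6, 11 and 16.3 CPM in the model libraries, a log2 fold change of 1.26 ± 0.29 (DESeq2, adjusted p = 0.042). Gstm3 had 1.81 ± 0.53 and Gstm1 0.59 ± 0.32, again with no overlap; the transferases are families of similar genes, so single values are uncertain. Nfe2l2, which encodes NRF2, the factor that raises antioxidant enzymes, was at 77.2, 58.4 and 78.5 CPM in the normal libraries and 92.4, 165 and 129 CPM in the model libraries, a log2 fold change of 0.85 ± 0.29. Aldh1a1, which oxidises retinal, had 0.88 ± 0.33. In the list of NRF2 targets, which holds both genes, Gsta3 and Gstm1, 4 of 25 tested members were higher in every model library (16%) and 0 lower, with a median of 0.26.

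**Figure D3:**
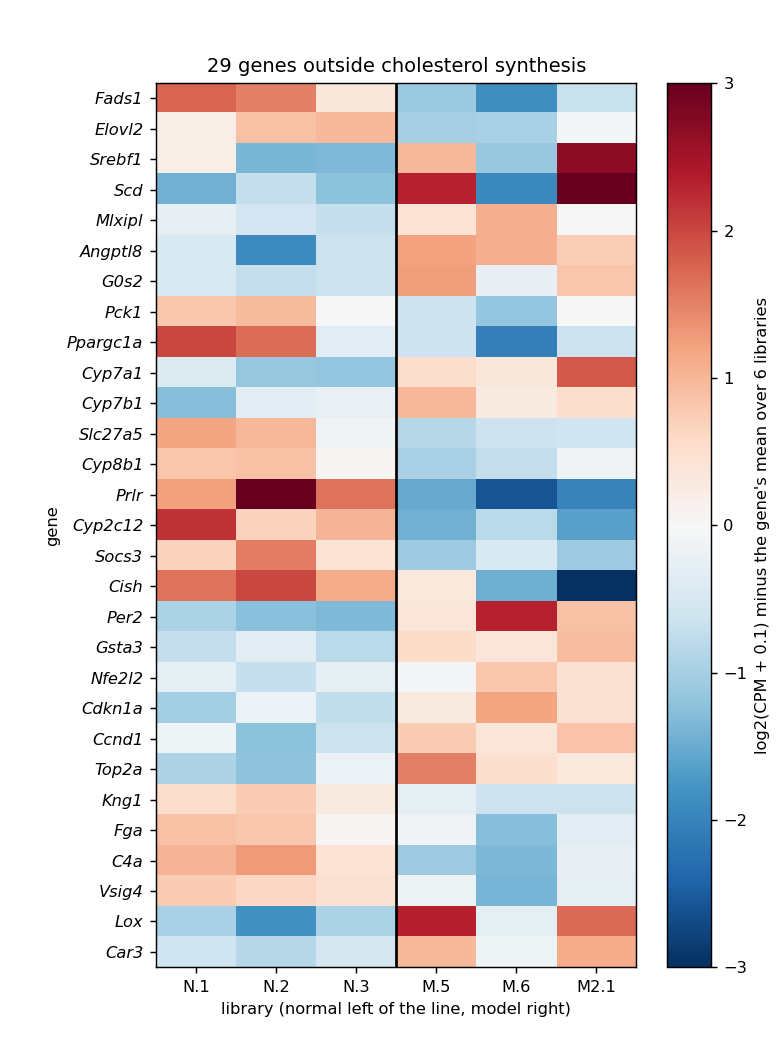
Levels of 29 genes outside cholesterol synthesis in each of the 6 libraries, as log2 of CPM plus 0.1 minus the mean of the gene over the 6 libraries; red is above the mean and blue below, and colours end at 3 on either side. Normal libraries are left of the black line and model libraries right; in Scd and Srebf1 the model library M.6 is blue and the other 2 model libraries are red, while Prlr, Cyp2c12 and Fads1 are blue in all 3 model libraries.

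Most genes of the cell cycle had positive log2 fold changes, at low levels. Of 38 listed genes 23 passed the filter on low counts, and a gene can pass it through its model libraries alone, as Ccna2 did. Counts are therefore given with no filter: of 37 genes with a count 30 were positive, 7 were higher in every model library (18.9%, beside 4.93% of all 15929 genes) and 0 lower, with a median of 0.69. At a mean CPM of at least 5 over all libraries 5 of the genes remained, 1 of them higher in every model library. Ccnd1, the cyclin that opens the cycle, was at 42.3, 19.5 and 29.4 CPM in the normal libraries and 78.6, 59.4 and 83.8 CPM in the model libraries, a log2 fold change of 1.28 ± 0.33. Top2a, the topoisomerase of dividing cells, was at 0.769, 0.607 and 1.35 CPM in the normal libraries and 4.61, 2.19 and 1.96 CPM in the model libraries, a log2 fold change of 1.68 ± 0.55. Foxm1, which switches on mitotic genes, was at 0.577, 0.789 and 1.05 CPM in the normal libraries and 2.63, 3.28 and 1.42 CPM in the model libraries, a log2 fold change of 1.59 ± 0.51. Top2a and Foxm1 were thus near or below 1 CPM in the normal libraries, and Ccnd1 was far above them in level. Mki67, the proliferation marker, had 1.36 ± 0.54, the replication helicase subunit Mcm6 1.20 ± 0.44 and the cyclin Ccna2 1.71 ± 0.66, each higher in every model library. Mybl1, a transcription factor of the MYB family, lay outside the list and was at 8.14, 4.19 and 3.08 CPM in the normal libraries and 16.1, 32.3 and 23.1 CPM in the model libraries, a log2 fold change of 2.21 ± 0.44 (DESeq2, adjusted p = 0.00219).

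Targets of p53, which arrests damaged cells, did not lie on 1 side. Cdkn1a, the cell cycle inhibitor p21, was at 36.9, 66.1 and 44.9 CPM in the normal libraries and 90.2, 170.2 and 102 CPM in the model libraries, a log2 fold change of 1.29 ± 0.35. Ccng1, another p53 target, had 0.69 ± 0.23; both were higher in every model library. Sesn1 at −0.87 ± 0.28, Btg2 at −0.59 ± 0.23 and Gadd45a at −0.68 ± 0.28, also p53 targets, were lower in every model library, and the median of the 15 tested members was 0.02. In the circadian clock 3 of 18 tested members were higher (16.7%) and 1 lower (5.56%) in every model library. Over all tested genes these shares were 5.09% and 5.4%, and the median of the clock list was 0.10. Per2, a repressor of the clock, was at 2.56, 2.06 and 1.95 CPM in the normal libraries and 6.5, 25.3 and 9.42 CPM in the model libraries, a log2 fold change of 2.64 ± 0.54 (DESeq2, adjusted p = 0.00203; 1.86 without M.6). Npas2, a partner of BMAL1, had 0.83 ± 0.28, the output factor Dbp 0.94 ± 0.36, and Nr1d2, a clock repressor, −0.45 ± 0.23. The labels give no hour of tissue collection, so a difference of clock hour between groups was not tested.

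Plasma proteins made by hepatocytes were lower in the model. Of 29 tested acute phase proteins 27 were negative and 12 were lower in every model library (41.4%, beside 5.4% of all tested genes), with a median of −0.61. Of 38 complement and coagulation genes 36 were negative and 11 were lower in every model library (28.9%), with a median of −0.52. C4a, a component of the classical complement route, was at 409, 493 and 268 CPM in the normal libraries and 94.7, 79.1 and 169 CPM in the model libraries, a log2 fold change of −1.77 ± 0.39 (DESeq2, adjusted p = 0.00986); a near-identical copy can share its reads. Kng1, the kininogen, was at 1803, 2148 and 1515 CPM in the normal libraries and 1019, 822 and 807 CPM in the model libraries, a log2 fold change of −1.05 ± 0.30 (DESeq2, adjusted p = 0.0279). Fga, a fibrinogen chain, was at 9093, 8711 and 5026 CPM in the normal libraries and 4572, 2039 and 3930.0 CPM in the model libraries, a log2 fold change of −1.11 ± 0.45, and Fgb, another chain, had −0.86 ± 0.38. Also lower in every model library were the copper carrier Cp at −0.83 ± 0.31, the pentraxin Apcs at −0.85 ± 0.36, the protease C1r at −0.91 ± 0.36, the clotting factor F7 at −0.64 ± 0.27 and the complement regulator C4bpa at −0.72 ± 0.35. In most of these genes M.6 held the lowest level.

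The level of these lists ran with the mitochondrial share of the libraries in part. The mean of the acute phase list was 10.64, 10.55 and 10.33 log2 CPM in the normal and 10.01, 9.22 and 9.99 log2 CPM in the model libraries, and that of complement and coagulation was 8.91, 8.81 and 8.58 and 8.30, 7.61 and 8.47 log2 CPM. M.6, with 44.1% mitochondrial counts, had the lowest means, and M2.1, with 4.90%, close to the share of N.1, also lay below all normal libraries in both. Without M.6 the counts stayed at 12 of 29 and 11 of 38, beside 8.05% of all tested genes, while medians moved to −0.42 and −0.34, and with the mitochondrial share as a covariate medians were −0.39 and −0.28. Hepatocyte markers, 17 tested, had a median of −0.52, and −0.23 without M.6. In every model library 4 of them were lower (23.5%, beside 5.4% of all tested genes). In such tissue samples fewer cells of a type and less RNA per cell cannot be told apart.

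**Figure D4:**
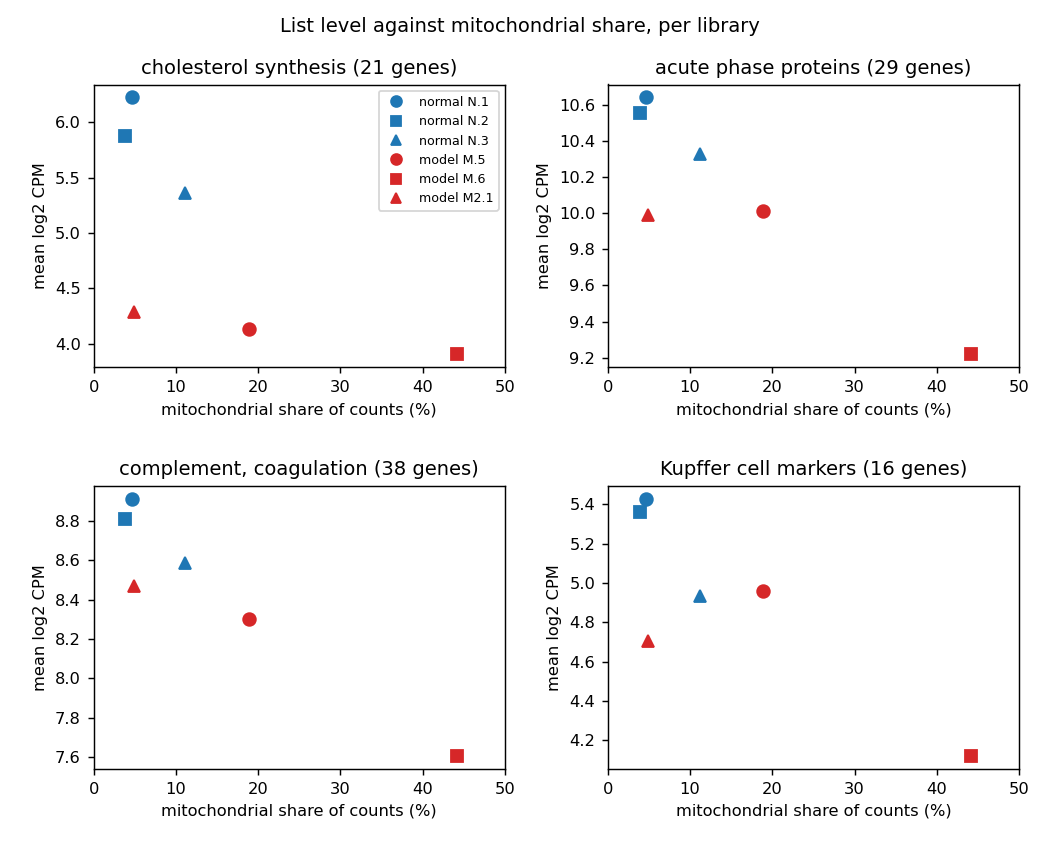
Mean log2 CPM of 4 gene lists (y axes, each on its own scale) against the mitochondrial share of counts in percent (x axis), with 1 point per library, normal in blue and model in red. M2.1 and N.1, with shares of 4.90% and 4.63%, differ in all 4 panels, and in the cholesterol synthesis panel all model libraries lie between 3.90 and 4.28, below the normal ones at 5.36 to 6.23.

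Of the enzymes of amino acid breakdown and the urea cycle, 38 tested, 4 were lower in every model library and 0 higher. The lower share was 10.5%, beside 5.4% of all tested genes, and the median was −0.19 (0.04 without M.6). Hal, the first enzyme of histidine breakdown, was at 236, 418 and 251 CPM in the normal libraries and 138, 83.4 and 204 CPM in the model libraries, a log2 fold change of −1.09 ± 0.40. Ass1, an enzyme of the urea cycle, had −0.87 ± 0.40, and Mat1a, which makes S-adenosylmethionine, −0.61 ± 0.31. Hal and Ass1 are periportal markers too. Of 14 tested periportal markers 4 were lower (28.6%) and 1 higher (7.14%) in every model library, with a median of −0.56 (−0.26 without M.6). Their mean was 8.63, 8.65 and 8.26 log2 CPM in the normal libraries. In the model libraries it was 8.36, 7.07 and 8.68 log2 CPM, so only M.6 lay below the normal libraries and M2.1 lay above them. The 15 tested pericentral markers had a median of 0.14, with 3 higher (20%) and 1 lower (6.67%) in every model library. Over all tested genes 5.09% were higher and 5.4% lower. The 1 higher periportal marker and the 1 lower pericentral marker are thus near these shares. Xbp1, the transcription factor of the unfolded protein response and of secretory capacity, was at 341, 313 and 242 CPM in the normal libraries and 147, 94.6 and 163 CPM in the model libraries, a log2 fold change of −1.14 ± 0.30, with no overlap. The list of the unfolded protein response had 3 of 21 tested members lower in every model library (14.3%) and 0 higher. With RLE scaling 1 was lower (4.76%, beside 5.03% of all tested genes). The median was −0.25 (−0.09 without M.6).

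Kupffer cells are macrophages that live in the sinusoids of the liver, and their markers tended to lower values. Of 16 tested markers 15 were negative with a median of −0.59 (−0.39 without M.6), and 1 was lower in every model library (6.25%, beside 5.4% of all tested genes). That count moved with some settings. It stayed at 1 with RLE or upper quartile scaling, with a mean CPM of at least 5 and without M.6 (5.88%, beside 8.05%). It was 3 of 16 without mitochondrial genes (18.8%, beside 5.39%). With all 12 libraries in 1 fit it was 3 of 17 (17.6%, beside 5.29%), and also with no filter on low counts. It was 3 of 17 without N.1 (17.6%, beside 7.6%) and 3 of 16 without N.2 (18.8%, beside 7.08%). Without M2.1 it was 5 of 17 (29.4%, beside 22.2%). The highest counts were 10 of 16 without M.5 (62.5%, beside 9.28%) and 9 of 17 without N.3 (52.9%, beside 12.1%). The 1 marker was Vsig4, a complement receptor, at 35, 31.7 and 28.7 CPM in the normal libraries and 18.7, 7.83 and 16.9 CPM in the model libraries, a log2 fold change of −1.13 ± 0.35. Clec4f, a lectin of rodent Kupffer cells, was at 237, 251 and 159 CPM in the normal libraries and 162, 54.7 and 106 CPM in the model libraries, with M.5 just above N.3. Csf1r had −0.61 ± 0.28, the scavenger receptors Marco −1.43 ± 0.64 and Cd163 −0.53 ± 0.28, all with overlap. Markers of monocyte-derived macrophages, 13 tested, had 10 positive members and a median of 0.55. Their mean was 2.77, 3.12 and 3.67 log2 CPM in the normal libraries and 4.09, 3.91 and 2.42 log2 CPM in the model libraries. M.5 and M.6 thus lay above and M2.1 below every normal library, and 0 members were higher or lower in every model library. The same count was 0 for the 40 interferon response genes.

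Lymphocyte markers were at low levels, and of 23 listed markers of T and NK cells 13 passed the filter. With no filter 19 had a count, 17 of them positive, with a median of 0.46, and 0 were higher in every model library. The 13 that passed had a median of 0.75, with 2 negative. With the mitochondrial share as a covariate their median was 0.04, with 6 negative. Their mean was 0.93, 0.89 and 1.65 log2 CPM in the normal libraries. In the model libraries it was 2.20, 1.97 and 0.85 log2 CPM, so M2.1 lay below every normal library. Cd2 and Zap70, T cell genes, were at 0.513, 0.971 and 0.826 CPM in the normal libraries and 3.54, 1.82 and 0.708 CPM in the model libraries for Cd2 and 0.641, 0.243 and 1.43 CPM in the normal libraries and 2.55, 4.37 and 0.925 CPM in the model libraries for Zap70, with M2.1 inside the normal range. Cd4, which rat macrophages also express, was on the other side, at 25.8, 24 and 14 CPM in the normal libraries and 7.49, 6.37 and 13 CPM in the model libraries, a log2 fold change of −1.24 ± 0.38. Genes of MHC class II, which present antigen, had 8 of 9 tested members positive with a median of 0.80, which was 0.22 without M.5, 1.13 without M2.1 and 0.15 with the mitochondrial share as a covariate. RT1-Db1, a class II beta chain, was at 23.5, 44.5 and 48.6 CPM in the normal libraries and 205, 76.3 and 40.1 CPM in the model libraries, so that M.5 was the highest and M2.1 lay within the normal range, and its log2 fold change of 1.46 ± 0.59 was 0.58 without M.5. RT1-DOb, at 0.98 ± 0.50, was the 1 member higher in every model library. MHC genes of the rat form families of similar sequence, so reads may be divided among them.

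Markers of sinusoidal endothelium had 4 of 18 tested members lower in every model library (22.2%, beside 5.4% of all tested genes) and 0 higher. The median was −0.19. Dnase1l3, a secreted nuclease, was at 27.4, 27.5 and 34.6 CPM in the normal libraries and 20.0, 11 and 21.6 CPM in the model libraries, a log2 fold change of −0.76 ± 0.31. The others were Oit3 at −0.62 ± 0.35, Tie1 at −0.44 ± 0.25 and Gpr182 at −0.43 ± 0.25, and Stab2, the hyaluronan scavenger receptor, had −0.98 ± 0.41 with overlap through M2.1. Of 18 stellate cell and fibroblast markers 0 lay outside the normal range in all model libraries. Among 34 tested genes of the extracellular matrix 3 were lower (8.82%) and 1 higher (2.94%) in every model library. Over all tested genes these shares were 5.4% and 5.09%, and the median of the list was −0.32. The higher one was Lox, the oxidase that cross-links collagen and elastin, at 13.3, 7.34 and 13.6 CPM in the normal libraries and 132, 21.2 and 84.8 CPM in the model libraries, a log2 fold change of 2.80 ± 0.63 (DESeq2, adjusted p = 0.00265). The lower ones were Col4a1, a chain of basement membrane collagen, at −0.72 ± 0.34, Sparc at −0.57 ± 0.28 and Timp3, a protease inhibitor, at −0.64 ± 0.32. The level of Lox spread from 21.2 to 132 CPM over the model libraries.

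In the smaller marker lists, bile duct cells had 3 of 13 tested members higher in every model library (23.1%, beside 5.09% of all tested genes). Among them were Anxa4 at 0.57 ± 0.24 and Cftr at 0.43 ± 0.48, the latter at about 1 CPM. The mean of the bile duct list was 1.70, 1.86 and 2.36 log2 CPM in the normal libraries. In the model libraries it was 2.40, 2.76 and 1.45 log2 CPM, so M2.1 lay below every normal library. Adipocyte markers had 2 of 7 (28.6%). These were Car3, a carbonic anhydrase abundant in fat and in male rat liver, at 612, 509 and 648 CPM in the normal libraries and 1802, 838 and 1988 CPM in the model libraries, a log2 fold change of 1.39 ± 0.39, and Pparg, the receptor that drives fat storage, at 3.91, 2.61 and 2.18 CPM in the normal libraries and 5.76, 5.01 and 7.89 CPM in the model libraries, a log2 fold change of 1.10 ± 0.37. In Pparg all model libraries exceeded all normal ones at a few CPM. Of the 13 listed adipocyte markers 7 were tested, and the droplet coat gene Plin1 had 1 count over the 6 libraries; Car3 and Pparg are expressed by hepatocytes too.

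Among the 10 genes of smallest p in each direction that have more than a locus number for a name, those not yet described were all higher in the model. Tmem150c, a membrane protein, was at 10.1, 9.58 and 7.06 CPM in the normal libraries and 25.1, 23.9 and 25.3 CPM in the model libraries, a log2 fold change of 1.47 ± 0.25 (DESeq2, adjusted p = 0.000218), with the 3 model libraries within about 1 CPM of each other. Adam11, a member of the ADAM family without protease activity, was at 5.38, 6.98 and 10.1 CPM in the normal libraries and 48, 88.2 and 25.8 CPM in the model libraries, a log2 fold change of 2.85 ± 0.49 (DESeq2, adjusted p = 2.01e-05). Adam8, a membrane protease of myeloid cells, was at 0.449, 0.728 and 0.45 CPM in the normal libraries and 2.14, 6.46 and 8.27 CPM in the model libraries, a log2 fold change of 3.35 ± 0.60 (DESeq2, adjusted p = 0.000265). In each of them all model libraries lay above all normal libraries, and Adam11 passed in edgeR without M2.1 (adjusted p = 0.0341). DESeq2 also called Dmtn, an actin-bundling protein of the red cell membrane, at 2.11 ± 0.39 (adjusted p = 0.000948), Tex13b at 3.76 ± 0.71 (adjusted p = 2.01e-05), Tpd52l1 at 3.36 ± 0.66 (adjusted p = 0.000948) and Pyroxd2 at 1.09 ± 0.24 (adjusted p = 0.027), again with no overlap. Of the genes known by a locus number, RGD1561849 and LOC100910057 had p of the same order, with log2 fold changes of 1.70 ± 0.32 and 2.72 ± 0.53 (DESeq2, adjusted p = 0.00203 and 0.00365).

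**Figure D5:**
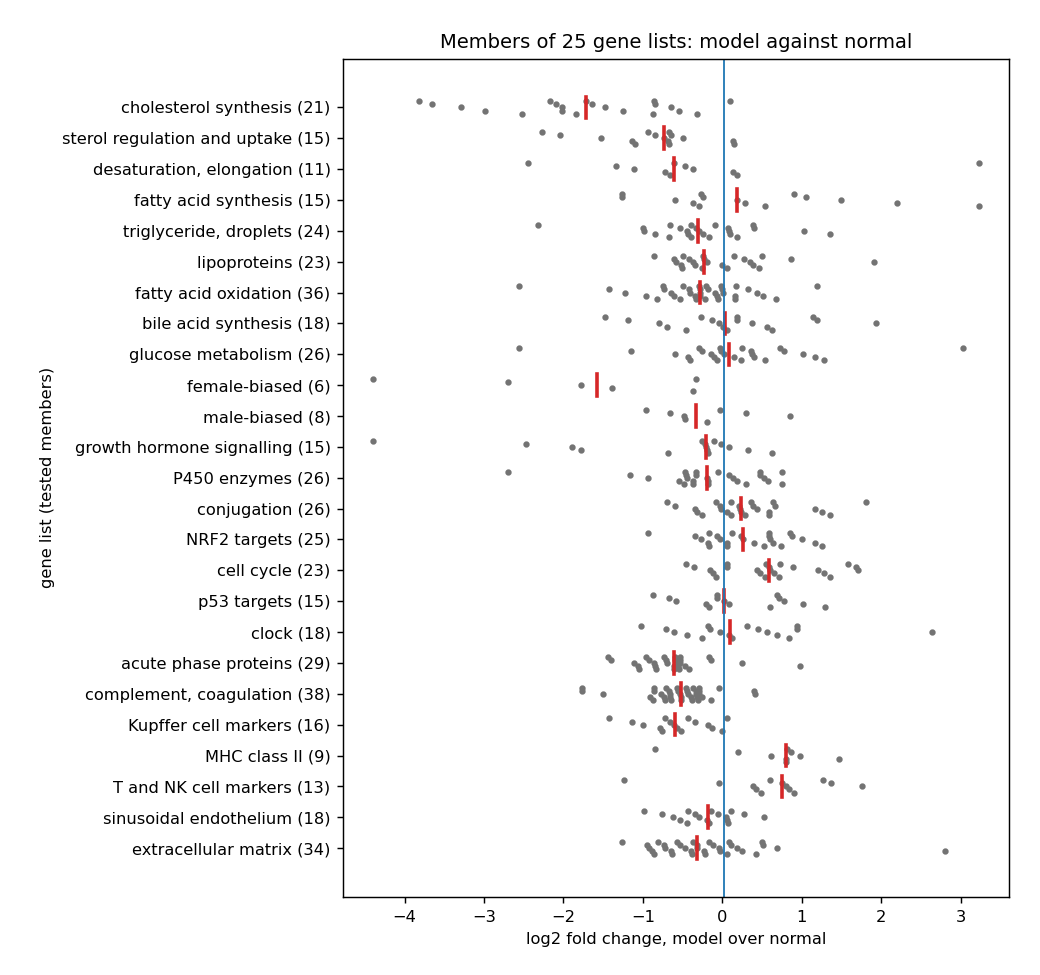
Log2 fold change, model over normal (x axis), of every tested member (grey points) of 25 gene lists, with the median of each list as a red bar and the median of all 11779 tested genes, 0.02, as a blue line; the number of tested members stands beside each name. The median of cholesterol synthesis lies at −1.71 and that of acute phase proteins at −0.61.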

How the data were processed

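The 6 libraries were taken from the table in which the authors set normal against model. The authors deposited raw read counts there, per the file headers, and all values are whole numbers. How reads were aligned and counted, on which annotation and with which strand setting, is not given in the sources used here. DESeq2 and mm9, a build of the mouse genome, stand in the submitters' processing notes without a version, so no coordinates of the files are printed. Beside the counts the authors deposited their own log2 fold change (normal over model, turned round here) and p-value with its adjusted form; the text names the authors' deposited table wherever it uses them. Another 36 per-sample columns were left unused.

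Columns were matched to groups by their letters and not to single samples, since their numbers are not those of the labels; the name M2.1 has another form than M.5 and M.6, which no label explains. Within groups every pair of libraries differed by more than sampling noise (chi-square per degree of freedom 36.0 to 639). The test was that of edgeR 4.0.16 in R 4.3.3 (filterByExpr, TMM scaling, quasi-likelihood, Benjamini-Hochberg adjustment over 11779 genes, threshold 0.05). There were 4 residual degrees of freedom and 3.74 prior ones. CPM values use TMM-scaled library sizes. Alternatives were DESeq2 1.42.0, limma 3.58.1 with voom, other scalings and filters, a covariate, all 12 libraries and each library left out. The code of the test was checked on simulated counts in which all genes shared the same spread. These libraries differ from that, so the check does not show the power of the test here. Depth sets the precision, and genes at a few CPM are the least precise.

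The 56 gene lists, the members named and the rules were chosen with earlier results of these data known. The rule for naming takes the 10 genes of smallest p in each direction that have more than a locus number for a name, up to 2 others, and in each described list up to 5 members of smallest p and, in lists of up to 25 tested members, those whose groups do not overlap. Lss and Ggps1 were named outside it, and a few genes it takes are not reported here. Promoter sequences are from RefSeq (GRCr8), matched by symbol, and only symbols with a single promoter entry were used. Figures were drawn with matplotlib 3.10.9.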

Additional observations from a re-analysis of the deposited data

How the results depend on the processing

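Precision is limited by 3 libraries a group and by the distance between the model libraries. The number of genes with an adjusted p under 0.05, 0 in edgeR, was 58 in DESeq2, 53 in the authors' deposited table, 3 in limma-voom with sample quality weights, 1 with the mitochondrial share as a covariate and 1 with no filter on low counts; it was 0 in limma-voom, with all 12 libraries, with a robust prior, with the other scalings, with a mean CPM of at least 5 and without mitochondrial genes. Leaving out 1 library at a time gave between 0 and 3 genes, and between 231 and 3220 at an unadjusted p under 0.05, where limma-voom with quality weights gave 3135. The counts of genes whose groups do not overlap, 600 higher and 636 lower, ran from 848 to 2662 higher and from 853 to 2663 lower when a library was left out; fewer libraries must overlap there, and the highest counts came without M2.1. Of the 148 genes named, over these alternatives, 147 kept their sign in each of them; Ggps1 turned to −0.33 with the mitochondrial share as a covariate and ran from −0.15 (without M.6) to 0.27 when a library was left out, and the cause was not tested. For triglyceride synthesis and droplets 1 of 24 members was higher in every model library (4.17%, beside 5.09% of all tested genes). This was 2 with RLE scaling (8.33%, beside 5.46%) and 2 of 29 with no filter (6.9%, beside 4.93%). For the extracellular matrix 1 of 34 was higher (2.94%). With all 12 libraries 2 of 35 were (5.71%, beside 5.25%), and without mitochondrial genes 2 of 35 (5.71%, beside 5.14%). With no filter 2 of 36 were (5.56%, beside 4.93%). Without N.3 the counts of these 2 lists were 3 of 24 (12.5%) and 5 of 35 (14.3%), beside 11.8%. No paired analysis was possible because the columns carry no replicate number that the groups share.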

Other observations

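DESeq2 also called 33 genes that are in none of the gene lists, 24 higher and 9 lower in the model. The genes of this paragraph that were not named above were chosen after their values were seen, and none passed in edgeR. Chka, the choline kinase that starts phosphatidylcholine synthesis, was at 73, 92.4 and 101 CPM in the normal libraries and 532, 744 and 119 CPM in the model libraries, a log2 fold change of 2.39 ± 0.61 (DESeq2, adjusted p = 0.0172). M.5 and M.6 held the high values, and Chka passed in edgeR without M2.1 (adjusted p = 0.0341). Sult2b1, a sulfotransferase of cholesterol and other sterols, was at 1.28, 0.789 and 0.826 CPM in the normal libraries and 8.23, 3.0 and 3.27 CPM in the model libraries, a log2 fold change of 2.31 ± 0.54 (DESeq2, adjusted p = 0.027). Ptprf, a receptor tyrosine phosphatase, was at 211, 178 and 188 CPM in the normal libraries and 389, 667 and 342 CPM in the model libraries, a log2 fold change of 1.28 ± 0.33 (DESeq2, adjusted p = 0.0434). In these 3 genes the groups did not overlap. Lama5, a laminin chain of basement membranes, was at 2.5, 2.91 and 6.76 CPM in the normal libraries and 11, 46.4 and 13.3 CPM in the model libraries, with M.6 the highest. Igh-6, an immunoglobulin heavy chain, was at 10.7, 4.37 and 6.76 CPM in the normal libraries and 38.7, 102 and 11.2 CPM in the model libraries, so M2.1 lay close to N.1. The cation channel Trpm3 had 2.33 ± 0.57 (adjusted p = 0.0259).

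Lower genes called by DESeq2 outside the lists included enzymes of nucleoside and fatty acid metabolism. Upp2, a uridine phosphorylase of liver, was at 14, 22.4 and 10.7 CPM in the normal libraries and 2.55, 5.19 and 5.77 CPM in the model libraries, a log2 fold change of −1.79 ± 0.42 (DESeq2, adjusted p = 0.0357). Acsf2, an acyl-CoA synthetase, was at 27.6, 54.2 and 13.9 CPM in the normal libraries and 7.57, 3.64 and 8.17 CPM in the model libraries, a log2 fold change of −2.30 ± 0.54 (DESeq2, adjusted p = 0.0172). Zfp385b, a zinc finger gene, was at 24, 17.7 and 21.6 CPM in the normal libraries and 8.14, 8.92 and 9.36 CPM in the model libraries, a log2 fold change of −1.26 ± 0.25 (DESeq2, adjusted p = 0.00675). In each of them every model library lay below every normal library. Net1, an exchange factor for RhoA, had −1.30 ± 0.31 (adjusted p = 0.0464), the lysosomal sulfatase Arsb −1.03 ± 0.23 (adjusted p = 0.0404), UST4r −1.69 ± 0.37 (adjusted p = 0.0172), Ksr2 −1.61 ± 0.37 (adjusted p = 0.037), the membrane protein Xk −1.53 ± 0.36 (adjusted p = 0.0456) and Gfra3, a receptor of the GDNF family, −1.26 ± 0.30 (adjusted p = 0.0472).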
